A study of Mus musculus with 12 samples.

Results

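The genes described here run the mechanics of cell division. They are 36 genes chosen by name: kinesin motors of mitosis, microtubule-associated proteins and kinases of the spindle, builders of the centriole, proteins of cytokinesis, and Melk and Top2a, which belong to none of these classes. They stand against 19938 genes with a probe set of their own on the array. Of the 36, 35 had such a probe set. Kifc1, a motor that walks toward microtubule minus ends, shares its probe set with another symbol and has no value here.

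RNA came from quadriceps muscle of C57Bl/6 mice at day 7. By the labels, 6 arrays (labelled KO) came from mutant animals that lacked cofilin-2, the muscle form of an actin-severing protein. The other 6 arrays (labelled WT) came by the labels from their wildtype littermates, the controls. The level of Cfl2, given next, opposed these labels. Each mouse gave 1 array, and nothing in the labels describes a treatment. The labels restrict the deficiency to no cell type, and muscle tissue holds fibres together with many other cells.

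Cfl2 itself opposed the labels. Its log2 level lay at 12.31 to 12.43 on the arrays labelled KO and at 4.92 to 7.71 on those labelled WT, a difference of 6.32 ± 0.36 (SE) with limma's adjusted p = 1.98e-07. Whether the labels were exchanged was not tested, and which part of Cfl2 this probe set reads was not checked. No array was moved, so the text speaks of arrays labelled KO and arrays labelled WT, and every direction given is that of the labels as deposited. Set beside the study's report, this direction is the opposite for Cfl2, Ucp1 and Lep and for most genes of mitosis. It is the same for Kif11, Kif2c and Sass6 and for Fbxo5, a regulator of mitotic entry and exit. Genes that define skeletal muscle fibres were strongly detected on all arrays, with a mean log2 level of 12.97 to 13.13 over 8 markers on arrays labelled KO and 12.79 to 13.06 on arrays labelled WT. Array medians were 6.35 to 6.41 on arrays labelled KO and 6.42 to 6.46 on arrays labelled WT. Array WT4 stood apart through genes of neutrophils and their progenitors. The mean of 6 such markers was 9.47 on WT4, and 5.78 to 6.14 on the arrays labelled KO and 5.92 to 6.37 on the other 5 labelled WT.

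Mitosis is a short stage at which a cell rebuilds its microtubules into a spindle, pulls the chromosome copies apart and then cleaves. Kinesins are motors that slide, shorten or carry microtubules. Centrioles seed the spindle poles and are copied in each cycle, and cytokinesis needs a bundle of microtubules between the separating chromosomes and a contractile ring of actin and myosin around them. Muscle fibres no longer divide. In a growing muscle of a young mouse the dividing cells are satellite cells and myoblasts, which supply nuclei to the fibres, together with fibroblasts, endothelial cells and macrophages. Transcription of many of these genes, though not of all, peaks in late G2 and mitosis. It depends on MuvB complexes with B-Myb or Foxm1, which bind the cell cycle homology region TTTGAA, and on the factor NF-Y, which binds CCAAT boxes.

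The promoter stretches of 6 members show these letters where the members did and did not differ between the groups. Each is the 120 bases just ahead of the outermost end that RefSeq annotates for the gene (assembly GRCm38.p6), written 5′ to 3′ on the strand of the gene, with CCAAT or its reverse complement ATTGG and TTTGAA or its reverse complement TTCAAA in capitals. Kif11 (chr19:37376262-37376381, plus strand), Ckap2l (chr2:129297229-129297348, minus strand), Top2a (chr11:99024200-99024319, minus strand) and Prc1 (chr7:80294325-80294444, plus strand) were called higher on arrays labelled KO. Ckap5 (chr2:91526627-91526746, plus strand) and Cep152 (chr2:125625175-125625294, minus strand) did not pass the test.
Kif11: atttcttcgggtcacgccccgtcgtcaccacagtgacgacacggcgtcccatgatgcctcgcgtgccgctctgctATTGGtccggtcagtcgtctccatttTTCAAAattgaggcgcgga
Ckap2l: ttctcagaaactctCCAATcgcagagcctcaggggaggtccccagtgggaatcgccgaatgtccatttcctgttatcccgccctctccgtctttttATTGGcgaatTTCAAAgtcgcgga
Top2a: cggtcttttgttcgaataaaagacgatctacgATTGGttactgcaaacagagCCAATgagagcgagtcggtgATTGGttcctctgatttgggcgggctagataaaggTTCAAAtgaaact
Prc1: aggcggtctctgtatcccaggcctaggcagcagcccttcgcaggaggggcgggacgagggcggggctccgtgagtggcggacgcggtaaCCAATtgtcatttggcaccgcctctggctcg
Ckap5: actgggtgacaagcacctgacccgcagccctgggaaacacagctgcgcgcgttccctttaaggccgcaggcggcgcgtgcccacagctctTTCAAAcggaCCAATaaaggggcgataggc
Cep152: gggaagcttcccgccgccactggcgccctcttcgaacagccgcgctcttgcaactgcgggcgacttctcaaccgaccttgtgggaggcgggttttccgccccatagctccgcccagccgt

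Kif11 carries 1 CCAAT box and 1 TTTGAA in this stretch, and Ckap2l carries 2 boxes and 1 TTTGAA. Top2a has 3 boxes ahead of its TTTGAA. Ckap5 holds both motifs and the stretch of Cep152 neither. TTCGAA, another spelling counted further on, stands in lower case in the stretches of Top2a and Cep152. For all genes shown but Kif11 the outermost annotated end lies ahead of the start used for the motif counts given further on. Motifs between the 2 points are therefore counted but not printed.

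Of the 35 measured members, 32 were higher on the arrays labelled KO, 0 were lower and 3 did not pass the test (limma, adjusted p under 0.05). At an unadjusted p under 0.05 the counts were also 32 and 0. Over all 21789 probe sets 19.5% were higher by this rule, 12.4% were lower and 31.9% differed in either direction. The median log2 difference of the members was 0.65, or 1.57-fold, and their range was -0.02 to 1.12, beside a median of -0.02 over all probe sets. On 21 members all 6 arrays labelled KO lay above all 6 labelled WT, as did 10.5% of all probe sets. Also 21 members were called at 1.5-fold or more, beside 2.91% of all probe sets. In bulk muscle, fewer cells of a type and less RNA per cell cannot be told apart.

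**Figure D1:**
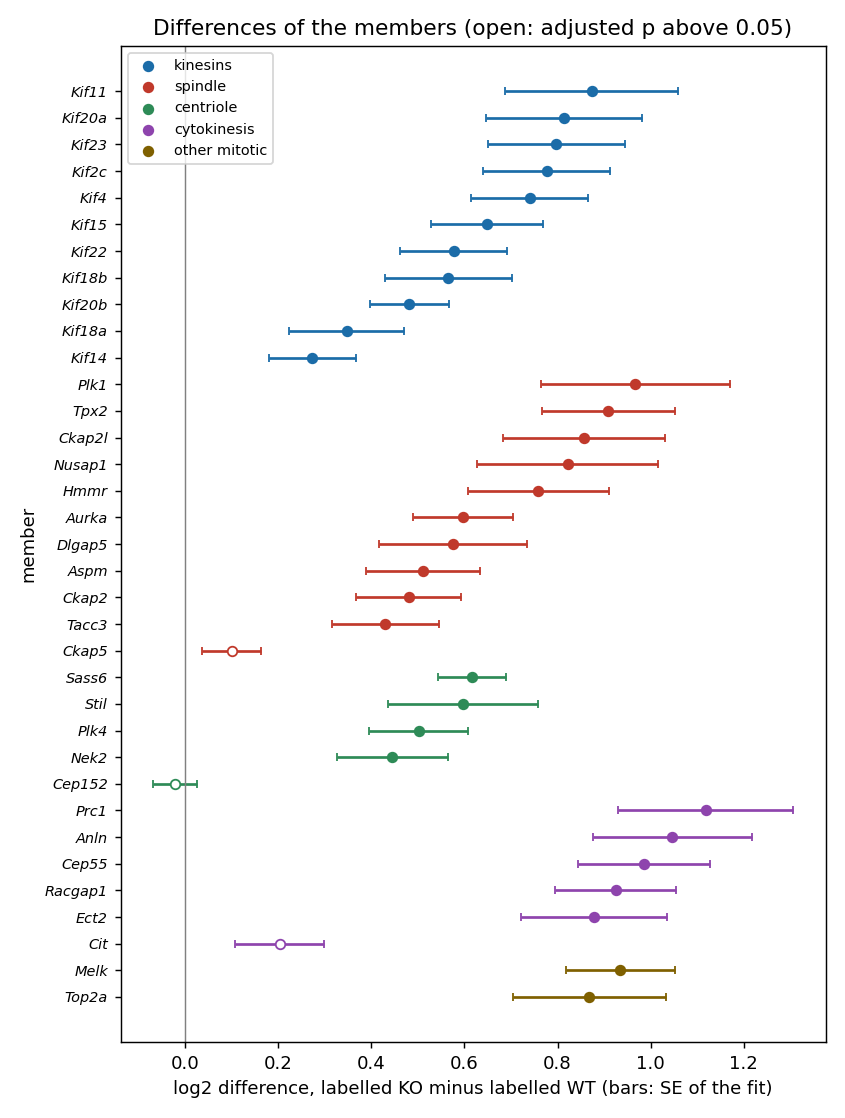
Log2 difference of each of 35 members, labelled KO minus labelled WT, with bars of 1 SE of the fit (6 arrays a group). Colours give the class, open circles are members that did not pass, and 34 of 35 points lie above 0.

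All 11 measured mitotic kinesins were higher on arrays labelled KO, with a median of 0.65. Kif11, the motor that pushes the spindle poles apart, had log2 levels of 8.92 at the lowest, a median of 9.03 and 9.16 at the highest on arrays labelled KO, against 7.46, 8.12 and 8.84 on arrays labelled WT. The groups did not overlap, and the array labelled KO that was lowest stood just above WT4. Its difference was 0.87 ± 0.19 (SE, adjusted p = 0.00278). Kif15, which can stand in for Kif11 at the spindle, differed by 0.65 ± 0.12 (adjusted p = 0.00104).

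Kif20a, which takes the chromosomal passenger complex to the spindle midzone, lay at 8.12 to 8.44 with a median of 8.21 on arrays labelled KO and at 6.73 to 8.09 with a median of 7.41 on arrays labelled WT. Every array labelled KO was above every array labelled WT, though WT3 came close. The difference was 0.81 ± 0.17 (adjusted p = 0.00225). Kif23, the motor of the centralspindlin complex, differed by 0.80 ± 0.15. Kif2c, which takes apart microtubule ends at faulty chromosome attachments, differed by 0.78 ± 0.14. The chromosome-bound motors Kif4 and Kif22 differed by 0.74 ± 0.13 and 0.58 ± 0.12. Kif4 has a pseudogene copy, Kif4-ps, whose own probe sets differed by 0.00 and -0.01 (adjusted p = 0.976 and 0.946).

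Kif18b and Kif20b, which act on microtubule plus ends and in the final cut between daughter cells, differed by 0.57 ± 0.14 and 0.48 ± 0.09. The 2 smallest differences of the class were those of Kif18a and Kif14, both near the threshold. Kif14, needed with citron kinase for cleavage, had 6.36, a median of 6.42 and 6.61 on arrays labelled KO, against 5.90, 6.17 and 6.55 on arrays labelled WT. Only WT4, at 6.55, reached into the range of the arrays labelled KO, and the difference was 0.27 ± 0.09 (adjusted p = 0.0386). A second, dim probe set of Kif14 lay at 3.98 to 4.13 on arrays labelled KO and at 4.05 to 4.26 on arrays labelled WT and did not pass (-0.07 ± 0.05, adjusted p = 0.241).

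Kif18a, which damps the swing of chromosomes at the spindle equator, had 6.53, a median of 6.71 and 6.91 on arrays labelled KO, against 6.13, 6.25 and 6.93 on arrays labelled WT. WT4 at 6.93 was the highest of all 12 arrays. The difference was 0.35 ± 0.12 (adjusted p = 0.0461), and without WT4 it was 0.46 (adjusted p = 0.000912). That of Kif14 without WT4 was 0.35 (adjusted p = 0.00264). Both calls were lost in most of the other fits that left out 1 array.

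Of 11 spindle genes 10 were higher on arrays labelled KO, with a class median of 0.60. Plk1, the kinase that drives entry into and passage through mitosis, had 8.63, a median of 8.73 and 8.95 on arrays labelled KO, against 6.85, 7.85 and 8.37 on arrays labelled WT. The groups did not overlap, and the arrays labelled WT spanned the wider range by far. The difference was 0.97 ± 0.20 (adjusted p = 0.00258). Tpx2, which activates the kinase Aurka on spindle microtubules, had 8.28, a median of 8.42 and 8.50 on arrays labelled KO, against 6.98, 7.45 and 7.98 on arrays labelled WT, a difference of 0.91 ± 0.14 (adjusted p = 0.000335). Aurka differed by 0.60 ± 0.11 (adjusted p = 0.00086). Here the groups overlapped, as they did for Dlgap5, which steadies the fibres that hold chromosomes (0.58 ± 0.16), Ckap2 (0.48 ± 0.11) and Tacc3 (0.43 ± 0.11).

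The spindle-bound proteins Ckap2l, Nusap1 and Hmmr differed by 0.86 ± 0.18, 0.82 ± 0.19 and 0.76 ± 0.15, and Aspm, which holds the spindle poles together, by 0.51 ± 0.12. For these 4 genes no array labelled WT reached an array labelled KO. Ckap5 was the exception of the class. It builds microtubules in non-dividing cells too, and had 9.33, a median of 9.43 and 9.62 on arrays labelled KO, against 9.19, 9.32 and 9.54 on arrays labelled WT. These ranges overlap over most of their length. The difference of 0.10 ± 0.06 did not pass (adjusted p = 0.25), with a 95% interval of -0.04 to 0.24. Tacc3, the partner that holds Ckap5 on the spindle, passed.

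The centriole class held 4 of 5 genes that were higher on arrays labelled KO and had a median of 0.50. Sass6, which forms the hub of the cartwheel that a new centriole is built on, had 7.38, a median of 7.52 and 7.60 on arrays labelled KO, against 6.67, 6.87 and 7.18 on arrays labelled WT. It was the only gene of the class whose groups did not overlap, at 0.62 ± 0.07, and had the smallest adjusted p of all members (4.26e-05). Stil, which brings Sass6 to the site of assembly, had 6.52, a median of 6.84 and 7.11 on arrays labelled KO, against 5.80, 6.16 and 6.81 on arrays labelled WT. WT3 and WT4 lay among the arrays labelled KO, and the difference was 0.60 ± 0.16 (adjusted p = 0.0116). Plk4, the kinase that starts centriole copying, differed by 0.50 ± 0.11, and Nek2, which loosens the link between centrosomes, by 0.45 ± 0.12.

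Cep152, the scaffold that recruits Plk4, had 5.67, a median of 5.77 and 5.90 on arrays labelled KO, against 5.72, 5.81 and 5.90 on arrays labelled WT. Its ranges were nearly the same, and the difference of -0.02 ± 0.05 did not pass (adjusted p = 0.758), with a 95% interval of -0.13 to 0.08. It was the only member below 0. The sign turned under some other scalings and in 1 fit that left out an array.

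Cytokinesis genes had the highest class median, 0.96 or 1.94-fold, with 5 of 6 higher on arrays labelled KO and all 5 without overlap. Whether the classes differ from each other was not tested. Prc1, which bundles the microtubules of the midzone, had the largest difference of all members. Its levels were 7.78, a median of 8.14 and 8.28 on arrays labelled KO, against 6.35, 6.84 and 7.64 on arrays labelled WT, which gives 1.12 ± 0.19 or 2.17-fold (adjusted p = 0.000549). Anln, the scaffold that ties actin, myosin and septins into the ring, had 8.30, a median of 8.51 and 8.58 on arrays labelled KO, against 6.64, 7.48 and 7.95 on arrays labelled WT, or 2.07-fold (1.05 ± 0.17, adjusted p = 0.000442).

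Cep55, which gathers the machinery of the final cut at the midbody, differed by 0.99 ± 0.14 or 1.98-fold (adjusted p = 0.000177). Both parts of the signal that opens the furrow were higher on arrays labelled KO: Racgap1, the partner of Kif23 in centralspindlin, by 0.93 ± 0.13 and Ect2, the exchange factor that switches on RhoA, by 0.88 ± 0.16. Cit, citron kinase, which keeps the midbody together, did not pass. It had 6.73, a median of 6.82 and 6.92 on arrays labelled KO, against 6.27, 6.60 and 6.96 on arrays labelled WT, with WT4 highest of all arrays. The difference was 0.20 ± 0.10 (adjusted p = 0.121, 95% interval -0.0019 to 0.41), and without WT4 it passed at 0.27 (adjusted p = 0.0189).

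Melk, a kinase made mainly in mitosis, had 7.46, a median of 7.63 and 7.83 on arrays labelled KO, against 6.39, 6.63 and 7.23 on arrays labelled WT. The groups lay apart, and the difference was 0.94 ± 0.12 (adjusted p = 6.08e-05). Top2a, the topoisomerase that untangles chromosome copies, had 9.17, a median of 9.28 and 9.38 on arrays labelled KO, against 7.82, 8.34 and 9.01 on arrays labelled WT. It also lay apart, at 0.87 ± 0.16 (adjusted p = 0.00128). A second probe set of Top2a was dim, at 3.86 to 4.13 on arrays labelled KO and 3.82 to 3.99 on arrays labelled WT, and did not pass (0.07 ± 0.05, adjusted p = 0.319).

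**Figure D2:**
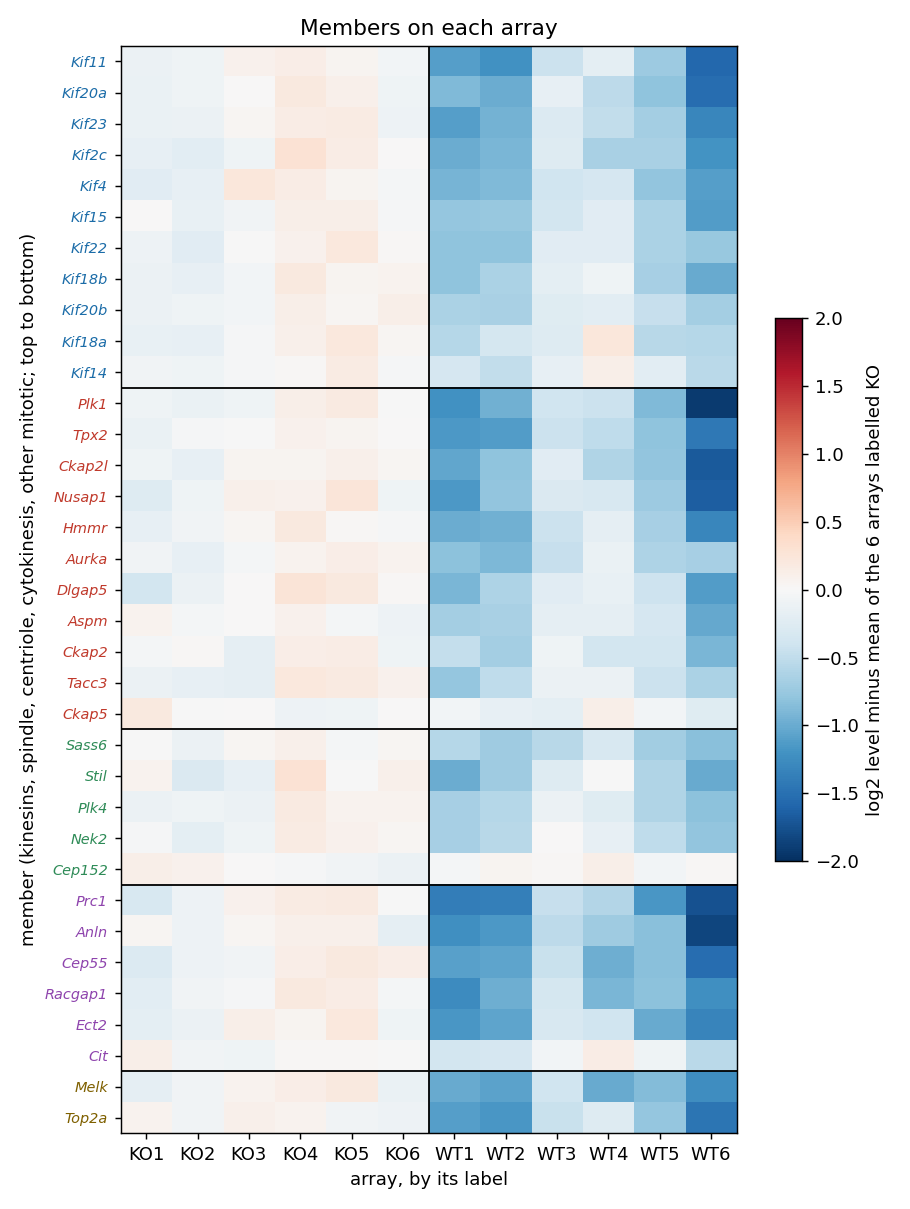
Log2 level of each of 35 members (rows, by class) on each of 12 arrays (columns, labelled KO at left), as the difference from the mean of the 6 arrays labelled KO. Columns WT6, WT1 and WT2 are darkest, WT3 and WT4 are palest among the arrays labelled WT, and Cep152, Ckap5 and Cit stay pale throughout.

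The arrays labelled WT differed among themselves far more than those labelled KO. The SD was larger on arrays labelled WT for 34 of 35 members and for 67.8% of all probe sets. The median SD of the members was 0.12 on arrays labelled KO and 0.33 on arrays labelled WT, beside 0.09 on arrays labelled KO and 0.11 on arrays labelled WT over all probe sets. The members kept much the same order of arrays. WT6 was the lowest array labelled WT for 30 of 35 members (24.8% of all probe sets). WT3 and WT4 were the highest pair for 30, and WT1, WT2 and WT6 the lowest 3 for 29. The share of all probe sets with this pair or this set of 3 was not counted. Relative to the mean of the arrays labelled KO, the median member lay at -0.91 on WT1, -0.80 on WT2, -0.26 on WT3, -0.24 on WT4, -0.66 on WT5 and -1.11 on WT6. On the other side KO4 was highest for 16 members (13.7% of all probe sets) and KO5 for 15 (20.7%). KO1 was lowest for 15 members (22.6% of all probe sets) and KO2 for 12 (15.4%).

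The classes followed this order alike. The mean log2 level of the kinesins was 7.41 to 7.69 on arrays labelled KO, against 6.73, 6.76, 7.28, 7.31, 6.93 and 6.51 on WT1 to WT6. That of the cytokinesis genes was 7.87 to 8.16 on arrays labelled KO, against 6.94, 7.02, 7.66, 7.44, 7.23 and 6.65 on WT1 to WT6. For both classes every array labelled KO lay above every array labelled WT. The spindle genes had 7.93 to 8.14 on arrays labelled KO and 6.89 to 7.77 on arrays labelled WT, and the centriole genes had 6.94 to 7.21 on arrays labelled KO and 6.38 to 6.94 on arrays labelled WT, where WT4 equalled the lowest array labelled KO.

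WT3 and WT4 changed places from gene to gene. WT4 was above WT3 for 16 of 35 members, close to the share over all probe sets, 40.2%. WT4 led by 0.48 for Kif18a, 0.32 for Aurka and 0.30 for Ckap5. It was below WT3 by 0.60 for Melk, 0.56 for Racgap1 and 0.53 for Cep55. WT4 was the array with the neutrophil and progenitor genes, such as Mpo, the peroxidase of their granules, at 10.11 there, 5.75 to 5.89 on arrays labelled KO and 5.82 to 6.38 on the other arrays labelled WT. WT3 had the highest Cfl2 level of the arrays labelled WT, 7.71. The part of either in the member values was not tested. The count of members that were higher was 33 without WT4, 31 without WT3 and 30 without WT6.

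**Figure D3:**
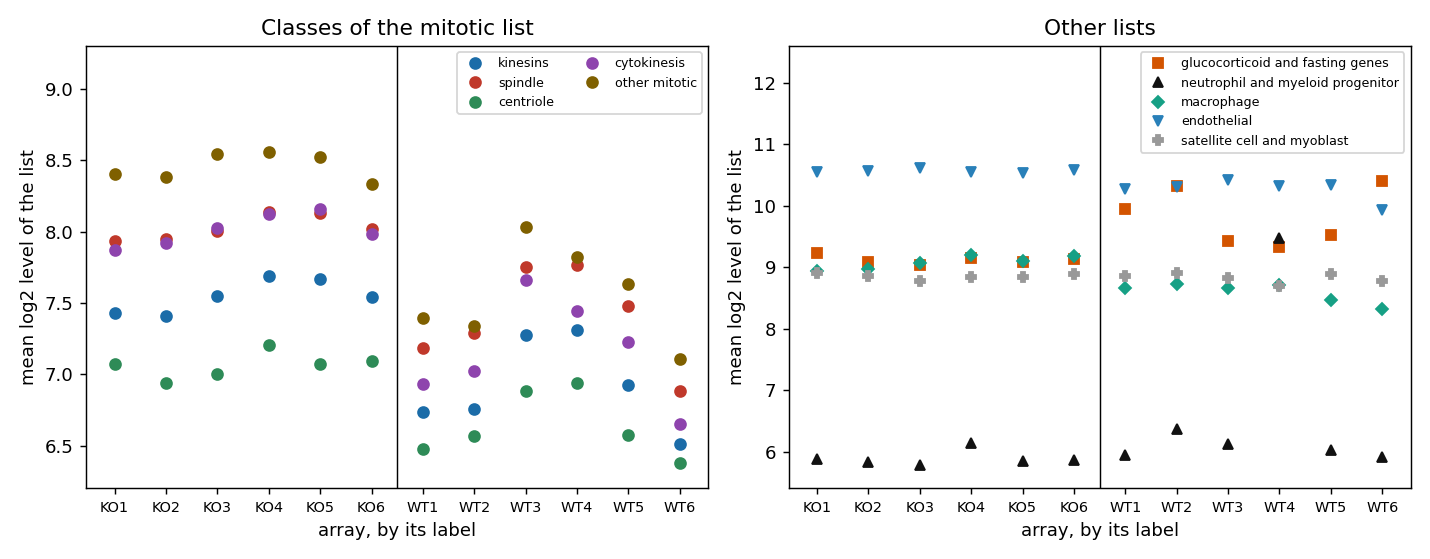
Mean log2 level of each class of members (left) and of 5 other gene lists (right) on each of 12 arrays, labelled KO at the left of each panel. The classes are lowest on WT6 and highest on WT3 and WT4 among the arrays labelled WT, the glucocorticoid and fasting list is highest on WT6 and WT2, and the neutrophil list stands out on WT4 alone.

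A list of glucocorticoid and fasting genes moved against the members. Of 16 measured, 0 were higher and 11 lower on arrays labelled KO, with a median of -0.59. Its mean level was 9.03 to 9.22 on arrays labelled KO, against 9.94, 10.32, 9.42, 9.33, 9.52 and 10.40 on WT1 to WT6. The 3 arrays labelled WT with the highest values are the 3 on which most members were lowest. Zbtb16, a transcription factor induced by glucocorticoid, differed by -1.64 ± 0.21 (adjusted p = 7.09e-05), Fkbp5, a chaperone of the glucocorticoid receptor, by -1.43 ± 0.43, and Fbxo32, a ubiquitin ligase of muscle wasting, by -1.41 ± 0.31. The part of these genes in the member values was not tested.

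Markers of other cell types of the muscle were set beside the members. All 6 macrophage markers were higher on arrays labelled KO, with a median of 0.43 and list means of 8.94 to 9.20 on arrays labelled KO and 8.32 to 8.73 on arrays labelled WT. The largest difference was that of Adgre1, the F4/80 antigen, at 0.88. Of 6 endothelial markers 4 were higher, with a median of 0.35 and list means of 10.52 to 10.61 on arrays labelled KO and 9.92 to 10.42 on arrays labelled WT. Of 5 fibroblast markers 4 were higher and 1 lower. Of 7 satellite cell and myoblast markers 1 was higher, Pax7, the factor of resting and activated satellite cells (0.20), and 1 was lower, Megf10 (-0.22), with a median of 0.06 and list means of 8.77 to 8.91 on arrays labelled KO and 8.70 to 8.91 on arrays labelled WT. The mean of 4 lymphocyte markers was 5.48 to 5.63 on arrays labelled KO and 5.45 to 6.05 on arrays labelled WT. Of 6 adipocyte markers 4 were higher and 0 lower, with a median of 1.41, above that of the members. Their mean was 7.87 on KO5 and 9.42 to 9.86 on the other arrays labelled KO, against 7.82 to 8.67 on arrays labelled WT, and without KO5 30 members were higher. The part of any of these cell types in the member values was not tested.

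**Figure D4:**
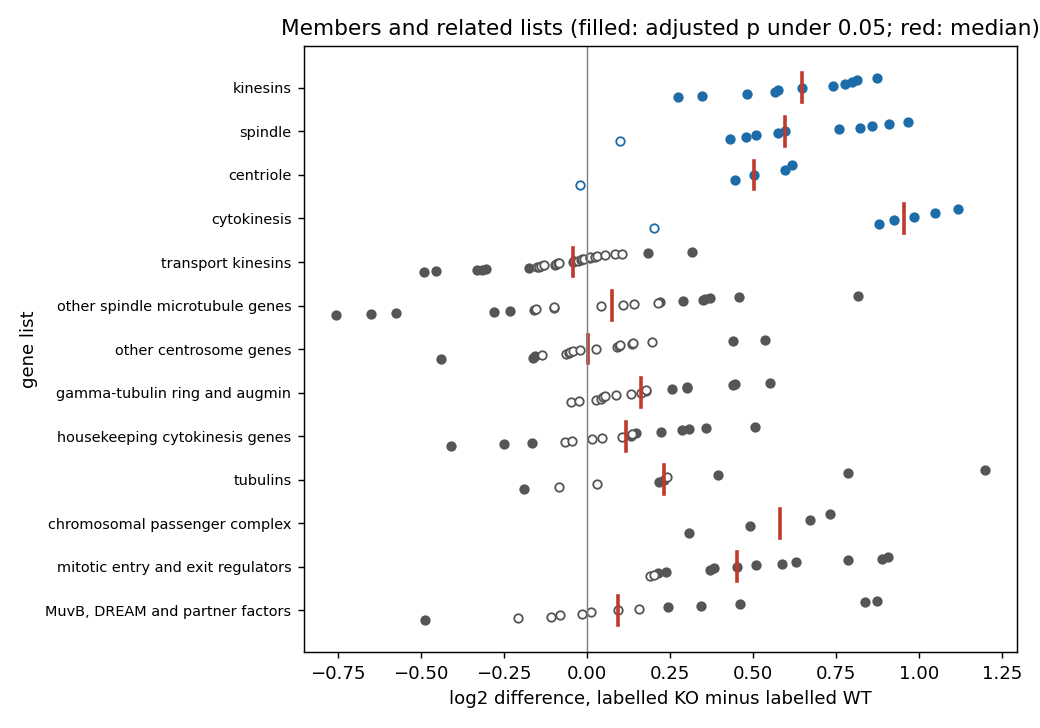
Log2 difference, labelled KO minus labelled WT, of every measured gene of 4 member classes (blue) and 9 related lists (grey), with filled points for adjusted p under 0.05 and a red line at each median. The member classes have medians of 0.50 to 0.96, the chromosomal passenger and mitotic entry lists 0.58 and 0.45, and the transport kinesins -0.04.

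Lists of relatives of the members, which mix genes that serve non-dividing cells with genes of division, gave other counts. Of 29 genes listed as transport kinesins, 2 were higher and 6 lower on arrays labelled KO, with a median of -0.04. This list also holds kinesin light chains and the adaptor Kifap3. Kif13a, Kif5b and Kif1b, which carry vesicles and organelles along microtubules, differed by -0.49, -0.46 and -0.33. The gamma-tubulin ring and augmin genes, which start new microtubules, had 7 higher and 0 lower of 17 and a median of 0.16, with 0.55 for Tubg1, 0.45 for Tubgcp4 and 0.44 for Tubg2. Of 18 other centrosome genes 2 were higher and 3 lower, with a median of 0.00. Cetn2, a calcium-binding protein of the centriole, differed by 0.54, Cep192 by 0.44 and Pcnt, the large scaffold of the centrosome, by -0.44.

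Of 20 other genes for microtubules of the spindle 7 were higher and 6 lower, with a median of 0.08. Stmn1, which takes up free tubulin, differed by 0.82, Tacc2, a relative of Tacc3, by -0.75 and Clip1, a tracker of growing plus ends, by -0.65. Of 9 tubulins 5 were higher and 1 lower, with 1.20 for Tuba8. Of 16 housekeeping cytokinesis genes 7 were higher and 3 lower, with a median of 0.12. The formins Diaph3 and Diaph1, which grow actin filaments, differed by 0.51 and -0.41.

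Direct partners in mitosis were counted too. All 4 subunits of the chromosomal passenger complex, which Kif20a carries, were higher on arrays labelled KO: the kinase Aurkb by 0.73, Incenp by 0.67, Cdca8 by 0.49 and Birc5 by 0.31. Of 13 regulators of mitotic entry and exit 11 were higher and 0 lower, with a median of 0.45. Mastl, a kinase that holds phosphatases in check during mitosis, differed by 0.91, and the cyclins Ccna2 and Ccnb2 by 0.89 and 0.79. Of 13 genes of the MuvB and DREAM complexes and their partners 5 were higher and 1 lower, with a median of 0.10, and 7 did not pass. Foxm1, the activator of late cell cycle genes, differed by 0.87, Rbl1, a pocket protein, by 0.84 and Tfdp2, a partner of the E2F factors, by -0.49, each without overlap between the groups.

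Promoter windows of 33 of the 36 members were found in RefSeq, each 250 bases before and 50 after the annotated start. Tpx2, Dlgap5 and Kif20a had no window. CCAAT, on either strand in the 250 bases before the start, was held by 21 of 33 (63.6%), beside 37.5% of 27025 genes. TTTGAA, on either strand, was held by 13 of 33 (39.4%), beside 18.3%, and both motifs by 9 (27.3%), beside 6.45%. At least 2 CCAAT boxes stood before the start of 12 members (36.4%), beside 11.5% of all genes, with 6 in Top2a and 5 in Hmmr. The other 3 spellings searched were rarer: TTCGAA in 2 members (6.06%, beside 1.55%), GCGGGAA in 2 (6.06%, beside 4.38%) and GCGCGAA in 1 (3.03%, beside 1.48%). The members were chosen by function and many are known targets of these factors, so these shares are a description.

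Over the whole window of 300 bases TTTGAA was held by 24 members, beside 20.2% of all genes. Of these, 11 hold it only in the 50 bases after the start. By class it stood in 10 of 11 kinesins, 7 of 9 spindle genes, 5 of 6 cytokinesis genes and 1 of 5 centriole genes, Sass6. Members with and without these motifs were found both among those that passed and among those that did not. Whether the motifs go with the difference was not tested. Ckap5, which did not pass, holds both motifs (its stretch is printed above). Cep152 has 3 CCAAT boxes, all outside the stretch shown, and no TTTGAA, and Cit has neither. Melk, Nusap1, Plk4, Tacc3 and Kif18a also have neither and were higher on arrays labelled KO.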

How the data were processed

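Total RNA of quadriceps from 12 mice was hybridized to Affymetrix Mouse Gene 1.0 ST arrays, 1 array a mouse. The authors extracted features with Affymetrix GCOS and made normalized gene level values with Affymetrix Power Tools. The deposited values are read here as log2 levels, a scale inferred from their range. Version, summary algorithm and build: not given in the sources used here. No depth applies to arrays, and their number, 6 a group, limits the precision.

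Groups came from the sample titles. Of 35556 probe sets 21789 had 1 gene symbol, 1621 several and 12146 had no entry in the platform annotation and stay unnamed. Gene identifiers gave current symbols (21698 matched RefSeq, GRCm38.p6). Each of 19938 genes was represented by its probe set of highest mean level. Differences, labelled KO minus labelled WT, were fitted over the 21789 probe sets with lmFit and eBayes of limma 3.58.1 in R 4.3.3, with group as the sole term. The threshold was a Benjamini-Hochberg adjusted p of 0.05. Intervals are 95% intervals of this fit. On simulated arrays of the same number it found 22 of 50 genes shifted by log2 0.25 and 46 of 50 shifted by 0.5. It found 48 of 50 shifted by 1 and all 50 shifted by 2, and made 9 false calls. The simulation shifted few probe sets and gave each gene the same spread in both groups. In the data 31.9% of probe sets were called and members spread wider on arrays labelled WT. The simulated rates therefore do not give the error of the calls reported here.

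The members, classes and lists were chosen with earlier results of these data known. Values by array were given for the 2 members of largest and the 1 of smallest size of difference in each class, for members that did not pass and for those with more than 1 probe set. Up to 3 passing genes of largest difference were named from each related list. Kif4-ps and Mki67 were named, and values by array of Kif18a added, after their values were seen. Promoter motifs were searched on both strands of RefSeq windows. Alternatives tried were quantile normalization, the replicate number as a block, centring on array medians, dropping probe sets below the median level, all rows of the table, limma's trend and robust settings, array weights, the methods' t-test, the probe set of lowest mean, each array left out and, chosen after seeing the data, the whole promoter window.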

Additional observations from a re-analysis of the deposited data

Results flagged for a closer look

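No member had an array that lay far from the rest of its group. Of 126 group means and member values looked at, 9 held 1 array whose gap to the next, as a share of the group's range, was above Dixon's critical value for 6 values. Chance flags about 1 group in 20. All 9 were mean log2 levels of other gene lists. On WT4 the neutrophil and myeloid progenitor list was at 9.47 (5.92 to 6.37 on the other arrays labelled WT), the erythroid list at 9.24 (6.79 to 7.49) and the lymphocyte list at 6.05 (5.45 to 5.54). The same neutrophil list was at 6.14 on KO4 (5.78 to 5.88 on the other arrays labelled KO). The adipocyte list was at 7.87 on KO5 (9.42 to 9.86 on the other arrays labelled KO) and at 8.67 on WT1 (7.82 to 8.04 on the other arrays labelled WT). The endothelial list was at 9.92 on WT6 (10.27 to 10.42), and WT6 was also the lowest array labelled WT for 30 of 35 members. The Schwann cell list was at 8.0 on WT2 (7.55 to 7.72). The list of other centrosome genes was at 7.82 on KO1 (7.66 to 7.69 on the other arrays labelled KO). The part of these arrays in the member values was not tested beyond the fits without each array.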

How the results depend on the processing

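Across the alternatives 30 to 33 of 35 members were higher on arrays labelled KO and 0 lower, with 22 of 23 where dim probe sets were left out. Of all 10893 probe sets kept in that setting 3663 were higher and 1792 lower, a larger share higher than among all 21789. With 1 array left out the members gave 30 to 33 calls, all probe sets 5924 to 7155, the housekeeping cytokinesis genes 6 to 11 and the glucocorticoid and fasting genes 7 to 13. Leaving out dim probe sets left 6 of 6 kinesins, 2 of 2 centriole genes, 2 of 2 chromosomal passenger genes and 7 of 9 mitotic entry and exit regulators called, since fewer were tested. The methods' t-test called 32 members before and 30 after Benjamini-Hochberg adjustment, and 6 glucocorticoid and fasting genes. The lowest probe set of each gene left 1 of Melk and Top2a called (Top2a at 0.07) and gave -0.073 for Kif14. Kif14 and Kif18a lost their call with all rows of the table (adjusted p = 0.0563 and 0.0669), with the methods' t-test (0.0747 and 0.0909) and in every fit without 1 array except those without KO1, KO2 and WT4 and, for Kif14, WT3. Where the call was lost the differences were 0.22 to 0.29 for Kif14 and 0.30 to 0.37 for Kif18a. Cep152 turned to 0.059 with quantile normalization, 0.029 with median centring and 0.0077 with array weights, and ran over -0.046 to 0.0003 with 1 array left out. Median centring called 5469 probe sets higher and 1557 lower, beside 4250 and 2702 as deposited. The whole promoter window held TTTGAA in 24 members. The cause of these shifts was not tested.

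The study describes pairs of mutant and littermate mice, but the sample titles do not say whether arrays of the same number were such a pair. Same-numbered arrays had deviations correlated at -0.22 to 0.17, and 1 number matched best both ways. Weak correlations of this kind cannot show whether the mice were littermates. With the replicate number as a block 32 members were higher and 6074 probe sets were called, 3911 higher and 2163 lower.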

Other observations

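Mki67, the gene of the proliferation marker Ki-67, was looked at after its values were seen. Its log2 levels were 9.86, a median of 10.01 and 10.10 on arrays labelled KO, against 8.45, 9.36 and 10.43 on arrays labelled WT. WT4 at 10.43 was the highest of all 12 arrays and WT6 at 8.45 the lowest. The difference of 0.55 ± 0.23 (SE) did not pass (limma, adjusted p = 0.0854).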
